A study of Mus musculus with 4 samples.

Results

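The mouse genes of antigen presentation by major histocompatibility complex (MHC) class II lie together on chromosome 17, with genes of peptide processing for class I among them and the complement gene Cfb nearby. Over this locus the distribution of H3K4me3 is described, the trimethylated form of lysine 4 of histone H3, a mark common at promoters. Expression was not analysed here, so a peak is not read as an active gene. Members were chosen by position, as all peaks that overlapped a window of chromosome 17 from 34260000 to 34470000, which stands for H2-Aa, H2-Ab1, H2-Eb1, H2-DMa, H2-DMb1, H2-DMb2, Psmb8, Psmb9 and Tap1, or a window from 34990000 to 35003000, which stands for Cfb. Positions of peaks are in the mm9 build, counted from 1. Peaks of the 4 lists that overlapped were joined, which gave 16 regions in the windows, 15 for class II and 1 for Cfb, of 18786 regions in all. They are numbered 1 to 16 along the chromosome. The windows were picked with results of these same data known, so all values below are descriptions.

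The cells were macrophages grown from mouse bone marrow and used on day 7, from mice of a mixed background of C57BL/6 (94%) and 129/Ola (6%). The 4 groups were Wbp7+/- cells, called heterozygous below, which have 1 functional copy of Wbp7, untreated or given lipopolysaccharide (LPS) at 10 ug/ml for 4 h, and Wbp7-/- cells, called null below, which have none, untreated or given the same LPS. Wbp7, also called Kmt2b, encodes a methyltransferase for lysine 4 of histone H3, and LPS, from the outer membrane of Gram-negative bacteria, is a strong stimulus for macrophages. No wild-type group was analysed here, and the labels do not say how many mice gave a library or which strain each carried at this locus. Each group held 1 library, so differences below rest on single libraries and no test was run. The first line of the LPS-treated Wbp7+/- file names 24 h, against 4 h in its label and in the Wbp7-/- file, and every LPS value of heterozygous cells carries the doubt about that time.

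Class II molecules are pairs of an alpha and a beta chain that show peptides from engulfed proteins to CD4+ T cells. H2-Aa and H2-Ab1 encode the chains of I-A and H2-Eb1 the beta chain of I-E, whereas H2-DMa with H2-DMb1 or H2-DMb2 forms the chaperone that loads peptides onto them. Psmb8 and Psmb9 are catalytic subunits of the immunoproteasome, which cuts proteins into peptides, and Tap1 is part of the transporter that carries those peptides into the endoplasmic reticulum for class I. Cfb is complement factor B, the protease of the alternative pathway. Class II genes are switched on through the co-activator Ciita, which is recruited by factors bound to conserved promoter boxes, one of them the Y box with its inverted CCAAT core.

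Letters from the core of that promoter element are shown first. The larger window was drawn around class II genes, which are known for it, so its presence there is background and no result. RefSeq promoter sequences (GRCm38.p6, 250 bases before to 50 after an annotated start) were found for 8 of the 10 members. H2-Ab1 and Cfb had no entry. The letters TGATTGG, an inverted CCAAT with its usual flank in the Y box, were searched on both strands. They occurred in the promoters of 6 members, H2-Aa, H2-Eb1, H2-DMb1, H2-DMb2, Psmb9 and Tap1, and in 7.82% of all 32851 promoters of the table. Psmb9 and Tap1 run away from each other on opposite strands, and their promoter sequences hold the same match, from 34187334 to 34187340 in GRCm38.p6. Neither is a class II gene, so that match is not called a Y box. Stretches that end before the start site are printed with their GRCm38.p6 positions, 5′ to 3′ on the strand of the gene, with the match in capitals.
H2-Aa (chr17:34287847-34287928, minus strand): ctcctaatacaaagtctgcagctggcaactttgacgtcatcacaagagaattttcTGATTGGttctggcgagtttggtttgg
H2-Eb1 (chr17:34305751-34305832, plus strand): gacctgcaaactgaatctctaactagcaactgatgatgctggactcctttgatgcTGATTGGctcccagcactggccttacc
H2-DMb1 (chr17:34153073-34153154, plus strand): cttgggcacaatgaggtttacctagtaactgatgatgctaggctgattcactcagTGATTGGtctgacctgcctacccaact
H2-DMb2 (chr17:34145102-34145183, plus strand): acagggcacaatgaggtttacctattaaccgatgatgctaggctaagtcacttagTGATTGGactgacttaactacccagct
Psmb9 (chr17:34187331-34187395, minus strand): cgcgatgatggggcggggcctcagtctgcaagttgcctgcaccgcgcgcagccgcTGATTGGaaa
The match began 50 bases before the annotated start of H2-Aa, 61 before that of H2-Eb1, 63 before that of H2-DMb1, 92 before that of H2-DMb2 and 10 before that of Psmb9. No match was present in the promoter sequences of Psmb8 and H2-DMa, which says only that these letters are not there. A match is a description of sequence and no evidence that a factor binds.

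The promoter positions are of another build than the peaks and cannot be set beside them, and no gene annotation of mm9 was used, so a region of the class II window is not tied to 1 gene. In the RefSeq table of GRCm38.p6 the protein-coding genes follow each other as H2-DMa, H2-DMb2, H2-DMb1, Psmb9, Tap1, Psmb8, Tap2, H2-Ob, H2-Ab1, H2-Aa and H2-Eb1, with Brd2 before and H2-Eb2 after. Cfb lies between Nelfe and C2. Of the pathway genes considered, those outside the windows, such as Ciita, Cd74, B2m and C3, were not analysed here, nor were marker genes of macrophages or other cell types, for the same reason. A peak list holds no level per cell, so fewer cells with the mark and less mark per cell cannot be told apart.

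**Figure D1:**
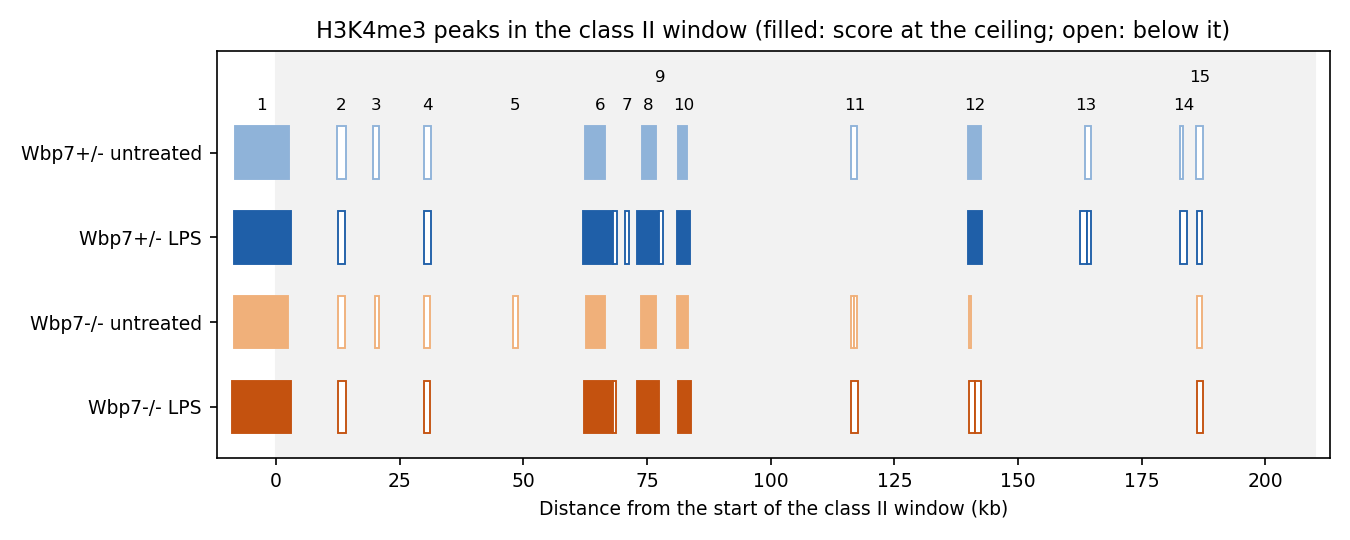
Each bar is a peak, placed by its distance in kb from the start of the class II window (shaded), in 1 row per library; filled bars have a score at the ceiling and open bars a lower one, and numbers above are the regions. Regions 1, 6, 8 and 10 are filled in all 4 rows, region 12 is filled in the heterozygous rows alone, and regions 13 and 14 are empty in both null rows.

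Over the class II window the 4 lists held 12 regions untreated and 12 after LPS in heterozygous cells, and 11 untreated and 9 after LPS in null cells. The covered width, the summed length of a list's peaks with the part of region 1 outside the window included, was 31.2 kb untreated and 37.1 kb after LPS in heterozygous cells. In null cells it was 26.8 kb untreated and 32.9 kb after LPS. Region 1 made up 10780 to 11844 bp of these totals, and most of it lay below the window start. The window regions thus covered more sequence after LPS in each genotype and less in null than in heterozygous cells at each treatment. Summed over the genome, covered width was 34.51 Mb in untreated and 34.93 Mb in LPS-treated heterozygous cells, and 33.47 and 33.9 Mb in null cells. Untreated and after LPS, the median peak width was 1768 and 1740 bp in heterozygous lists and 2106 and 2026 bp in null lists. The sources used here give no read numbers, so the depth behind a missing peak or a called width is unknown. Widths compared between lists below are differences in calls, which may not be changes in the mark.

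Of the 16 regions, 8 had a peak in all 4 lists (regions 1, 2, 4, 6, 8, 10, 12 and 15), a state found at 65.4% of all regions. The score of a peak grows with its enrichment and with depth, and scores pile up at a ceiling of 3100. From 54.8% to 62.0% of the peaks of a list stood at the ceiling. A ceiling peak itself thus scored above only 38.0% to 45.2% of its list, the highest place a peak could take. Regions 1, 6, 8 and 10 stood at the ceiling in every list. Region 12 reached it in both heterozygous lists and region 16 in both LPS lists. The other 10 regions were below the ceiling wherever they had a peak. Scores are the authors' and are given to place a peak within its own list. They also grow with the unknown depth of a library, so scores and places from different lists measure no change between them.

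The Cfb window showed the plainest difference with LPS: a broad peak in both LPS lists and none in either untreated list. Region 16 ran from 34994305 to 34999735. It had no peak in untreated heterozygous cells and no peak in untreated null cells. After LPS its peak was 5394 bp wide in heterozygous cells, from 34994305 to 34999698, and 4825 bp wide in null cells, from 34994911 to 34999735. Both LPS peaks were at the ceiling, and the genotypes differed mainly at the lower edge, where the null peak began 606 bp further in, against 37 bp further out at the upper edge. An LPS peak was thus called at this locus with and without functional Wbp7.

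Few regions of the genome shared this pattern. A peak in both LPS lists alone was seen at 329 of 18786 regions (1.75%, 95% Wilson interval 1.57 to 1.95), and the Cfb window was known from this class, so its share supports nothing. Within the class, 9 of 329 regions reached the ceiling with LPS in both genotypes (2.74%, 1.45 to 5.12), region 16 among them. The median covered width of the class was 981 bp in heterozygous and 934 bp in null cells, and region 16 ranked 5 by width in each list. In its own list the LPS peak was wider than 97.1% of all heterozygous peaks and 95.1% of all null peaks.

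The neighbours of region 16 lay outside the window. On the side of lower coordinates, 5.5 kb away, the region from 34986046 to 34988785 was at the ceiling in all 4 lists. It covered 2560 bp untreated and 2540 bp after LPS in heterozygous cells, and 2740 and 2380 bp in null cells. A marked neighbour was thus present with and without LPS, and the new peak appeared beside it. On the other side the next region was 25.3 kb away, with a peak of 764 bp and a score of 65.31 in LPS-treated heterozygous cells alone.

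**Figure D2:**
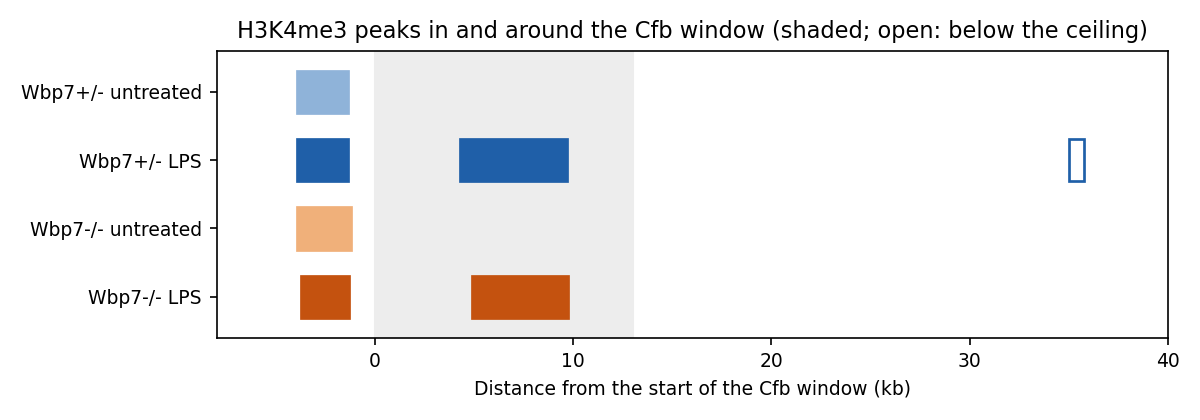
Peaks in and around the Cfb window (shaded) by distance in kb from its start, in 1 row per library; filled bars are at the ceiling and the open bar is below it. The bar inside the window is present in the LPS rows alone, 5394 bp wide in heterozygous and 4825 bp in null cells, and the bar to its left is present in all 4 rows.

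In the class II window LPS went with wider peaks at a block of neighbouring regions and with no new ceiling peak. A region was called wider where its covered width was at least 25% greater in one list than in the other, and narrower where it was at least 20% smaller, which is the same ratio. In heterozygous cells 5 of the 10 window regions with a peak at both treatments were wider after LPS (regions 6, 8, 10, 13 and 14), against 9.98% of 15039 regions of the genome, and 2 were narrower (regions 2 and 15), against 8.38%. In null cells 3 of 9 were wider (regions 6, 8 and 12), against 8.23% of 13092 regions, and 0 were narrower, against 8.07%. The median ratio of LPS to untreated width over the window regions was 1.19 in heterozygous and 1.15 in null cells, beside 0.983 and 0.977 over all regions with a peak in both lists.

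Regions 6, 8 and 10 spanned 21.8 kb together, at the ceiling in every list. Region 6, from 34322124 to 34328941, covered 3967 bp untreated and 6797 bp after LPS in heterozygous cells, and 3944 and 6352 bp in null cells. The untreated widths differed by 23 bp between the genotypes, and both LPS widths stood well above both untreated ones. The ratio of LPS to untreated width was 1.71 in heterozygous and 1.61 in null cells. The extension was lopsided. In heterozygous cells the upper edge moved out by 2419 bp and the lower one by 432 bp, and in null cells by 2176 and 419 bp. Part of it was a separate small peak in each LPS list, of 811 bp at 21 bp from the main peak in heterozygous cells and of 693 bp at 187 bp in null cells. These outer peaks scored 141.28 and 57.2, the null one near the lowest score of its list, 50.01. With scores of 100 or more only, the ratios were 1.51 in heterozygous and 1.43 in null cells.

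Region 8, from 34333052 to 34337385, covered 2692 bp untreated and 4309 bp after LPS in heterozygous cells, and 2989 and 4334 bp in null cells. Again both LPS widths exceeded both untreated ones, with ratios of 1.6 in heterozygous and 1.45 in null cells. Here both edges moved, the lower by 962 and the upper by 655 bp in heterozygous cells, and by 702 and 643 bp in null cells. After LPS the edges of this region in the 2 genotypes were 24 bp and 1 bp apart. In LPS-treated heterozygous cells a further peak of 716 bp, counted as region 9, lay 47 bp beyond the upper edge. No peak was called there in null cells. With peaks joined within 1 kb, that peak counted towards region 8. The ratios of LPS to untreated width were then 1.87 in heterozygous and 1.45 in null cells. After LPS the ratio of null to heterozygous width was then 0.862, against 1.01 without this joining. The closeness of the upper edges thus depended on how peaks were joined.

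Region 10, from 34341075 to 34343908, covered 2004 bp untreated and 2629 bp after LPS in heterozygous cells, and 2150 and 2606 bp in null cells. The ratios were 1.31 and 1.21, so the region passed the 25% threshold in heterozygous cells and fell below it in null cells, and the difference between the genotypes was not tested. The upper edge moved out by 596 and 684 bp. The lower edge moved out by 29 bp in heterozygous cells and in by 228 bp in null cells.

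Among the 8423 regions at the ceiling in all 4 lists, 5.82% were wider with LPS in heterozygous cells and 5.2% in null cells. Widening in both genotypes was seen at 252 of them (2.99%, 2.65 to 3.38), regions 6 and 8 included. The ratio of region 6, its outer peaks included, was above that of 99.1% of these regions in heterozygous and 98.8% in null cells. That of region 8, with region 9 left out, was above 98.6% and 97.8%.

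Region 1 was the widest of the 16 and stayed below the 25% threshold in both genotypes. It ran from 34251123 to 34263077 and crossed the lower edge of the window. It covered 10786 bp untreated and 11532 bp after LPS in heterozygous cells, and 10780 and 11844 bp in null cells, with ratios of 1.07 and 1.1. In base pairs it grew by 746 and 1064, more than region 10, which grew by 625 and 456. Its ratio was above that of 81.7% of the regions at the ceiling in all 4 lists in heterozygous cells and 86.0% in null cells. In untreated heterozygous cells its peak was wider than 99.9% of all peaks of the list. The nearest region outside the window on that side, 10.0 kb away from 34239527 to 34241120, had peaks of 684, 1587 and 1408 bp in untreated heterozygous, LPS-treated heterozygous and LPS-treated null cells and none in untreated null cells.

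**Figure D3:**
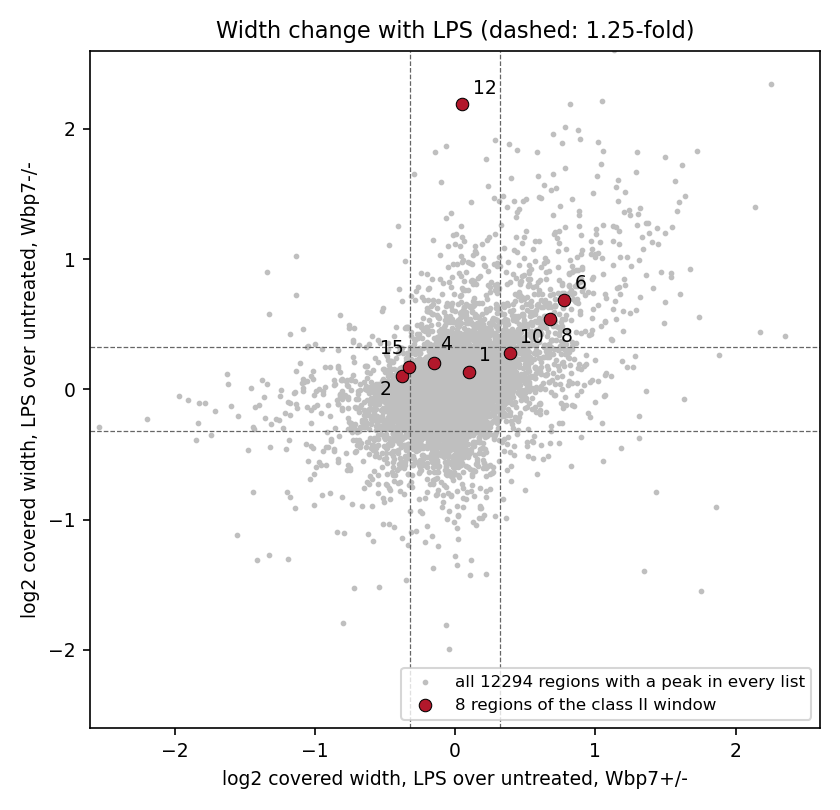
Each point is 1 of 12294 regions with a peak in every list (4 of them fall outside the axes), by the log2 ratio of covered width, LPS over untreated, in heterozygous cells (x axis) and in null cells (y axis); dashed lines mark widths 25% greater or 20% smaller and red points are the 8 class II regions with their numbers. Regions 6 and 8 lie beyond the lines on both axes, region 12 beyond the line of the null axis alone, and region 1 inside all lines.

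Of the window regions shared by the untreated lists, region 12 differed most in width between the genotypes. It held 1 wide peak in heterozygous cells, 2 shorter ones in LPS-treated null cells and 1 short one in untreated null cells. Region 12 ran from 34399873 to 34402726. In heterozygous cells it had a ceiling peak of 2728 bp untreated and of 2829 bp after LPS. In untreated null cells it had a peak of 515 bp with a score of 63.64, above 3.97% of the peaks of that list. In LPS-treated null cells it had 2 peaks, of 1268 and 1082 bp, 58 bp apart, with scores of 348.41 and 521.58, the higher of them above 27.7% of the peaks of that list. By covered width the heterozygous lists thus stood together, the LPS-treated null list near them, at 2350 bp summed, and the untreated null list far below. The wider of the LPS-treated null peaks alone, 1 of 2 split by 58 bp, exceeded 26.1% of its list in width. The unsplit heterozygous peaks exceeded 77.3% and 79.3% of theirs, so these places are not like for like. Within its own list, the untreated null peak was among the lowest in score.

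The ratio of null to heterozygous width at region 12 was 0.189 in untreated cells, and 1 of 13030 regions shared by the untreated lists had a lower one. After LPS the ratio was 0.831, above the limit for a narrower region. The null peaks began at about the same base untreated and after LPS, 7 bp apart, whereas the upper edge stood 1886 bp further out after LPS. In null cells the ratio of LPS to untreated width was therefore 4.56, against 1.04 in heterozygous cells, and whether these differ beyond the spread of replicates was not tested. Of the 9185 regions at the ceiling in both heterozygous lists, 94 (1.02%, 0.8371 to 1.251) had a score under 100 or no peak in untreated null cells, region 12 among them. Another count, of those with peaks below the ceiling in both null lists, was 482 (5.25%, 4.81 to 5.72). Both counts set scores of different lists side by side, so they describe calls and measure no change in the mark. The 4 other window regions at the ceiling in both heterozygous lists were so in both null lists as well. With peaks scoring under 100 left out of every list, region 12 had no peak in untreated null cells.

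Beyond region 12, on the side of higher coordinates, regions 13 and 14 had peaks in both heterozygous lists and in neither null list, a pattern seen at 10.9% of all regions. Region 13, from 34422483 to 34424842, had a peak of 1399 bp with a score of 329.42 untreated and 2 peaks, of 1453 and 902 bp, with a highest score of 293.18 after LPS. Its upper edge stayed within 1 bp and its lower edge moved out by 961 bp. Region 14, from 34442738 to 34444233, had a peak of 660 bp with a score of 109.43 untreated and of 1428 bp with a score of 192.39 after LPS. Both regions scored far below the ceiling in the lists that had them. Peaks in heterozygous without a null counterpart were common in general, at 18.5% of regions in untreated and 18.8% in LPS-treated cells. In the windows the numbers were 2 of 13 regions untreated (regions 13 and 14) and 4 of 14 after LPS (with regions 7 and 9).

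Region 15, from 34446030 to 34447308, was 1.8 kb from region 14 and kept a peak in all 4 lists. It was 1279 bp wide untreated and 1020 bp after LPS in heterozygous cells, and 1011 and 1141 bp in null cells. Its scores were 2209.15 untreated and 2141.39 after LPS in heterozygous cells. In null cells they were lower, 836.86 and 839.74, at unknown depth. Within their own lists the heterozygous peaks scored above 41.1% of peaks untreated and 41.6% after LPS, and the null peaks above 28.9% and 31.2%. The untreated ratio of widths was 0.79, which passed the threshold for narrower in null cells.

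Regions 2 and 4, near the lower end of the window, also had a peak in every list, below the ceiling throughout. Region 2, from 34272288 to 34274134, was 1847 bp wide untreated and 1424 bp after LPS in heterozygous cells, and 1486 and 1593 bp in null cells. Untreated and after LPS, its scores were 1182.62 and 966.17 in heterozygous cells and 261.72 and 203.46 in null cells. These lay above 36.4% and 35.3% of the peaks of the heterozygous lists and above 20.0% and 19.4% of those of the null lists. Region 4, from 34289859 to 34291315, was 1402 and 1264 bp wide in heterozygous and 1191 and 1373 bp in null cells. The scores were 687.45 and 616.23 in heterozygous and 343.75 and 294.19 in null cells. These lay above 32.0% and 31.8% of the heterozygous and 22.3% and 22.9% of the null lists. In both regions the widths of the genotypes overlapped, whereas the scores were lower in both null lists, at unknown depth. The peaks lay in the lower part of each list by score, as any peak below the ceiling did.

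Between the genotypes, 0 of 10 window regions were wider in untreated null cells, against 11.9% of 13030 regions, and 3 were narrower (regions 3, 12 and 15), against 9.69%. After LPS 0 of 9 window regions were called in either direction, against 12.8% wider and 11.3% narrower of 13149 regions. Region 3 had no peak after LPS, and regions 12 and 15 were then inside the limits. Over the window regions the median ratio of null to heterozygous width was 0.922 untreated and 1.01 after LPS, beside 1.03 and 1.03 over all regions with a peak in both lists.

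The remaining 5 regions were weak, and their calls differed between lists at scores of 50 to 149.34. Region 3, from 34279590 to 34280928, had a peak in both untreated lists alone, of 1339 bp with a score of 57.53 in heterozygous and of 638 bp with a score of 53.15 in null cells; 0.82% of all regions had this pattern. Region 5, from 34307972 to 34308887, had a single peak, in untreated null cells, with the lowest score of that list, 50. Regions 7 and 9 had a peak in LPS-treated heterozygous cells alone, of 829 bp with a score of 58.54 and of 716 bp with a score of 89.42. Region 9 lay 47 bp from the LPS peak of region 8 in the same list, so it abutted that ceiling peak. A peak in a single list was seen at 12.8% of all regions.

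Region 11, from 34376294 to 34377618, was missing in LPS-treated heterozygous cells alone, as were 1.79% of all regions. It had a peak of 1076 bp with a score of 149.34 in untreated heterozygous cells. In null cells it had 2 peaks with a summed width of 1192 bp and a highest score of 87.81 untreated, and 1 peak of 1325 bp with a score of 107.87 after LPS. It stood alone, 32.4 kb from region 10 and 22.3 kb from region 12.

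By presence alone, the windows gained a peak with LPS at 3 of 15 regions in heterozygous cells (regions 7, 9 and 16), against 7.95% of 17607 regions of the genome, and lost one at 2 (regions 3 and 11), against 6.64%. In null cells 1 of 12 was gained (region 16), against 7.61% of 15132 regions, and 2 were lost (regions 3 and 5), against 5.87%. Peaks of null cells without a heterozygous peak numbered 1 untreated (region 5), against 5.54%, and 1 after LPS (region 11), against 6.24%. Apart from region 16, every gain and loss with LPS in the windows was at a score of at most 149.34.

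**Figure D4:**
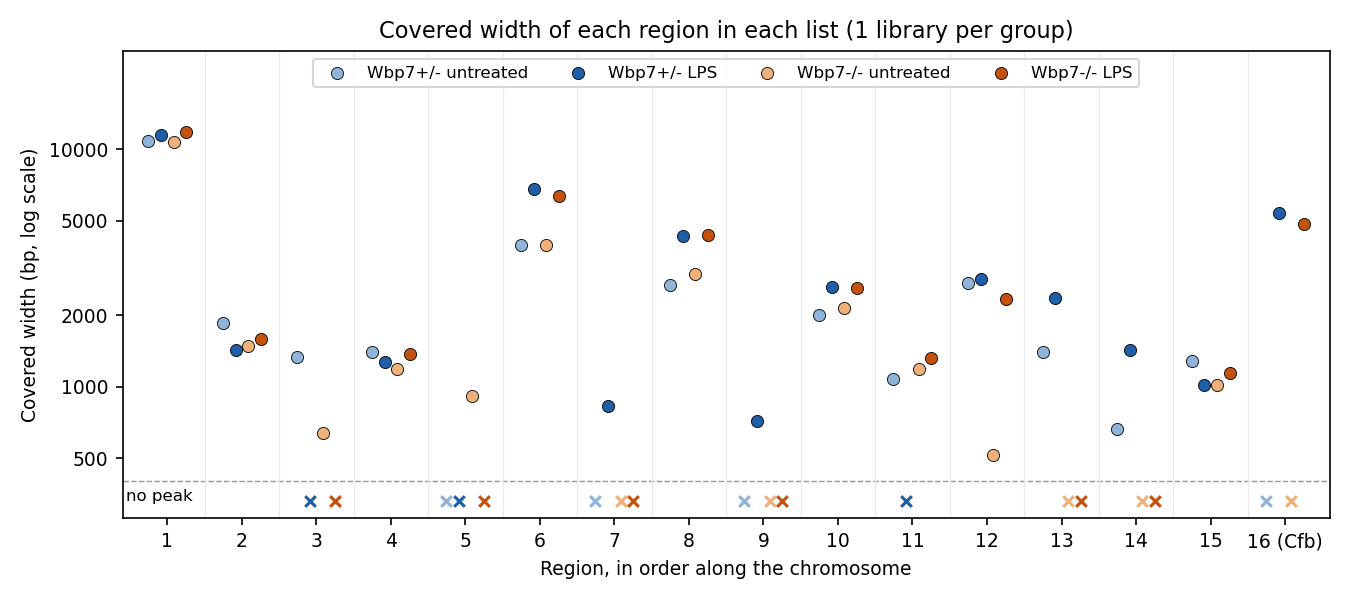
Covered width in bp (log scale) of each of the 16 regions in each library, with crosses below the dashed line where no peak was called. In regions 6 and 8 both LPS points lie above both untreated points, region 12 has 1 low point, 515 bp in untreated null cells, and region 16 has LPS points alone.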

How the data were processed

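H3K4me3 was immunoprecipitated from bone marrow-derived macrophages and sequenced, with 1 library in each of 4 groups taken from the sample titles. Per the submitters' processing notes, Bowtie was used with mm9. MACS called the peaks of each library, per the file headers, which also name an input. Versions, thresholds and read numbers, and with them the depth, are unknown from the sources used here. The authors deposited 1 score per peak, which MACS by convention derives from the p-value. The lists held 17316, 17313, 14599 and 15086 peaks (Wbp7+/- untreated and LPS, Wbp7-/- untreated and LPS), with lowest scores of 50 to 50.03.

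Peaks overlapping by 1 bp or more across the lists were joined into regions. Covered width is the sum of a list's peak widths in a region. A region was called wider at 25% more and narrower at 20% less covered width. Background shares come from the same calls over all regions, and 95% Wilson intervals cover counting error over regions only. Joining and ratios were tested on simulated data from 7427 isolated peaks of the untreated Wbp7+/- list, and 200 of 200 removed and 200 of 200 widened peaks were recovered. Recovery was fixed by this design, so it checks the code alone. Split or adjoining peaks, as found in the windows, were not simulated. All regions of the windows are described; no region is named for a gene, since the gene table is of GRCm38. The windows, the motif and the width threshold were chosen with earlier results of these data known. Alternatives were other score, joining, list length, width and threshold settings. Python 3.11.15, pandas 2.3.3, numpy 2.4.6, scipy 1.17.1 and matplotlib 3.10.9 were used.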

Additional observations from a re-analysis of the deposited data

Results flagged for a closer look

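At 3 regions the covered width changed with LPS in opposite directions in the genotypes, narrower in Wbp7+/- and wider in Wbp7-/- cells. The change was -423 bp against 107 bp at region 2, -138 bp against 182 bp at region 4 and -259 bp against 130 bp at region 15. With 1 library per genotype and treatment, this difference was not tested. Of the 12294 regions with a peak in every list, 18.2% were narrower in Wbp7+/- and wider in Wbp7-/- cells after LPS, against 3 of the 8 such regions of the windows (37.5%). Opposite changes in either order were seen at 35.9% of the 12294 regions.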

How the results depend on the processing

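Of 76 alternative counts over the windows, 64 stayed within 1.5 times the reported one. Many counts were of few regions, where a change by 1 could stay within this limit, so the tally says little about stability. With scores of 100 or more only, regions lost with LPS in Wbp7+/- numbered 1, regions gained and lost with LPS in Wbp7-/- 3 and 0, regions gained and lost in Wbp7-/- against Wbp7+/- untreated cells 0 and 4, and regions narrower in untreated Wbp7-/- cells 1. By construction this drops the untreated Wbp7-/- peak of region 12. With lists of equal length, regions lost with LPS in Wbp7+/- numbered 1, and regions gained and lost in Wbp7-/- against Wbp7+/- untreated cells 2 and 1. Without the LPS-treated Wbp7+/- list, gains with LPS in Wbp7-/- numbered 2, since the outer peak of region 6 is then not joined to it. Regions narrower with LPS in Wbp7+/- numbered 0 at 1.5-fold and 1 with ratios divided by their median. Of 152 alternatives to the ratios of single regions, 145 kept the call, 2 changed it and 5 gave no ratio. With scores of 100 or more only, no ratio was left for region 3 between untreated genotypes (0.476), for region 12 between untreated genotypes (0.189) and with LPS in Wbp7-/- (4.56), all of them called, or for region 11 in either comparison. The changed calls, both under division by the median ratio, were region 2 between untreated genotypes (0.778) and region 15 with LPS in Wbp7+/- (0.812). No paired analysis was possible because each group had 1 library. Unknown depth limits every absent peak and every width compared between lists.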
